A study of Mus musculus with 22 samples.

Results

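The granule lineage transcription factors described here are Atoh1, Neurod1, Neurod2, Zic1, Zic2, Pax6, Meis1, Barhl1, Nhlh1 and Nhlh2. They were taken by name, as every probe set of the array table annotated to exactly 1 of these symbols, which gave 21 probe sets of 45101 for 10 genes of 18194. A probe set is a group of short oligonucleotides on the array that reads 1 transcript or part of it. The expression arrays covered cultured cerebellar granule cells of postnatal day 7 mouse pups, in 3 separate profilings with 22 arrays in all. The sample titles call them cerebellar granule neurons (CGNs), a name the study keeps for postmitotic neurons, which it grew from granule neuron progenitors (GNPs), whereas the cell type label of the same samples reads granule neuron progenitors. In the first, 4 arrays of Chd7 mutant CGNs stood against 4 of wild type CGNs, both untreated. Chd7 is a chromatin remodeller, and the study's mutants carried Atoh1-Cre with Chd7 f/f alleles while the controls carried Chd7 f/f alone. The Cre was thus driven by regulatory sequence of Atoh1, a gene of this set. Chd7 was removed only in cells in which that driver had acted and in cells descended from them. In the second, CGNs had 12 h of 10 µM ICRF-193, an inhibitor of DNA topoisomerase II, or of the solvent DMSO, with 4 arrays each. In the third, cells titled CGNs were cultured with or without Smo2, with 3 arrays each. The labels name this addition but do not explain it. The study reports arrays of granule cells kept with the Smoothened agonist SAG, taken as proliferating GNPs, or without it, taken as postmitotic CGNs. Its text never uses the name Smo2. If these are the same arrays, the third comparison sets progenitors against neurons, whatever the titles call them. All 22 arrays were labelled as strain C56Bl6/J, and a genotype was labelled for the Chd7 groups but not for the other 4. Cells were purified on a density gradient without regard to the sex of the pups, and the labels call the arrays of a group biological replicates.

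Granule neurons arise from progenitors that divide in the outer layer of the young cerebellum and then leave the cell cycle, migrate inwards and form synapses. Atoh1, a basic helix-loop-helix (bHLH) factor, marks the dividing progenitor and is needed to make the lineage, while Neurod1 and Neurod2, of a related bHLH family, act in differentiation and survival of the postmitotic neuron. Zic1 and Zic2 are zinc finger factors, Pax6 a paired and homeodomain factor, and Meis1 and Barhl1 homeodomain factors of the lineage, while Nhlh1 and Nhlh2 are bHLH factors of young neurons. Sonic hedgehog, which signals through Smoothened, is the main mitogen of the progenitors.

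bHLH factors bind the E-box, spelled CANNTG and identical on both strands in this form. The 250 bases before the start of 4 members, from RefSeq on mouse build GRCm38.p6, are shown for the members with the largest called changes: Neurod1 in the Chd7 mutant, Meis1 and Neurod2 with ICRF-193 and Atoh1 and Neurod2 with Smo2. Every E-box is in capitals, and each window reads 5′ to 3′ towards the start on the strand given. The windows lie at chr6:64728875-64729124 on the plus strand for Atoh1 and, on the minus strand, at chr2:79456637-79456886 for Neurod1, chr11:98329646-98329895 for Neurod2 and chr11:19018970-19019219 for Meis1.
Atoh1: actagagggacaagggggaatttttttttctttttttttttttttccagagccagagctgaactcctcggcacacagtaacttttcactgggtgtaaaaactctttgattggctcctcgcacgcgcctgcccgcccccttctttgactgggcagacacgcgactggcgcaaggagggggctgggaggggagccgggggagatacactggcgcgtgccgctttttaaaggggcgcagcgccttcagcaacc
Neurod1: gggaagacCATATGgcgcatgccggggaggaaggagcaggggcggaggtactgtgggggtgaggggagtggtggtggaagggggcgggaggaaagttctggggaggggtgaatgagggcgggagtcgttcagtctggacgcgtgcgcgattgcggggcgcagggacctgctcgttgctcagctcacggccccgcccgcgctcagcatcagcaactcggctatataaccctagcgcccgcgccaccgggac
Neurod2: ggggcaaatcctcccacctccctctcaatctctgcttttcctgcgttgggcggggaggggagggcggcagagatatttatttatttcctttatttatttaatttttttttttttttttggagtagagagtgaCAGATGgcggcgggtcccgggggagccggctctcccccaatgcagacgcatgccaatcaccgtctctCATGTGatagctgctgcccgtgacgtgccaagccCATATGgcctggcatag
Meis1: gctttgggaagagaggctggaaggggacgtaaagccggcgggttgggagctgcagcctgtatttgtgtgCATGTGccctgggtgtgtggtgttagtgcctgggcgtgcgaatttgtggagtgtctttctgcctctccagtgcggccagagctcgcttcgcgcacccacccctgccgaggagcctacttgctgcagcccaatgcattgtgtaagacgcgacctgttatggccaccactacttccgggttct
The Neurod2 window held 3 E-boxes, whose first bases lay 118, 51 and 17 bases before the start. Neurod1 and Meis1 held 1 each, 242 and 181 bases before it, and Atoh1 held 0. Windows were found for 9 of the 10 members. Of their 11 windows, since Pax6 and Barhl1 have more than 1, 9 held an E-box, against 66.2% of all 32851 windows of the table, whose median was 1 E-box. The Gli core TGGGTGG, read on both strands and not overlapping the E-box in its letters, was in 0 of the 11 member windows and in 8.11% of all windows. These matches are a description of the letters in these windows.

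Values are log2 array signal after quantile normalisation, on which a difference of 1 is a doubling, and a level is never compared between probe sets. A probe set was tested where its mean over all arrays reached the median of all probe sets, 6.44, and 19 of the 21 member probe sets did so, at least 1 for each of the 10 genes. The Neurod2 probe set 1444362_at and the Meis1 probe set 1459423_at were too dim and have no test. Calls are at an adjusted p below 0.05 in limma's two-sided test, adjusted by the Benjamini-Hochberg method across the 22496 probe sets tested. Some members read far above 6.44 on every array: the Neurod1 probe set 1426413_at lay between 14.37 and 15.06, the Zic1 probe set 1439627_at between 14.16 and 14.87 and the Pax6 probe set 1419271_at between 12.74 and 13.49. These levels do not measure the purity of the cells and do not tell progenitors from neurons. In these arrays of many cells, fewer cells of a type and less RNA per cell cannot be told apart.

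**Figure D1:**
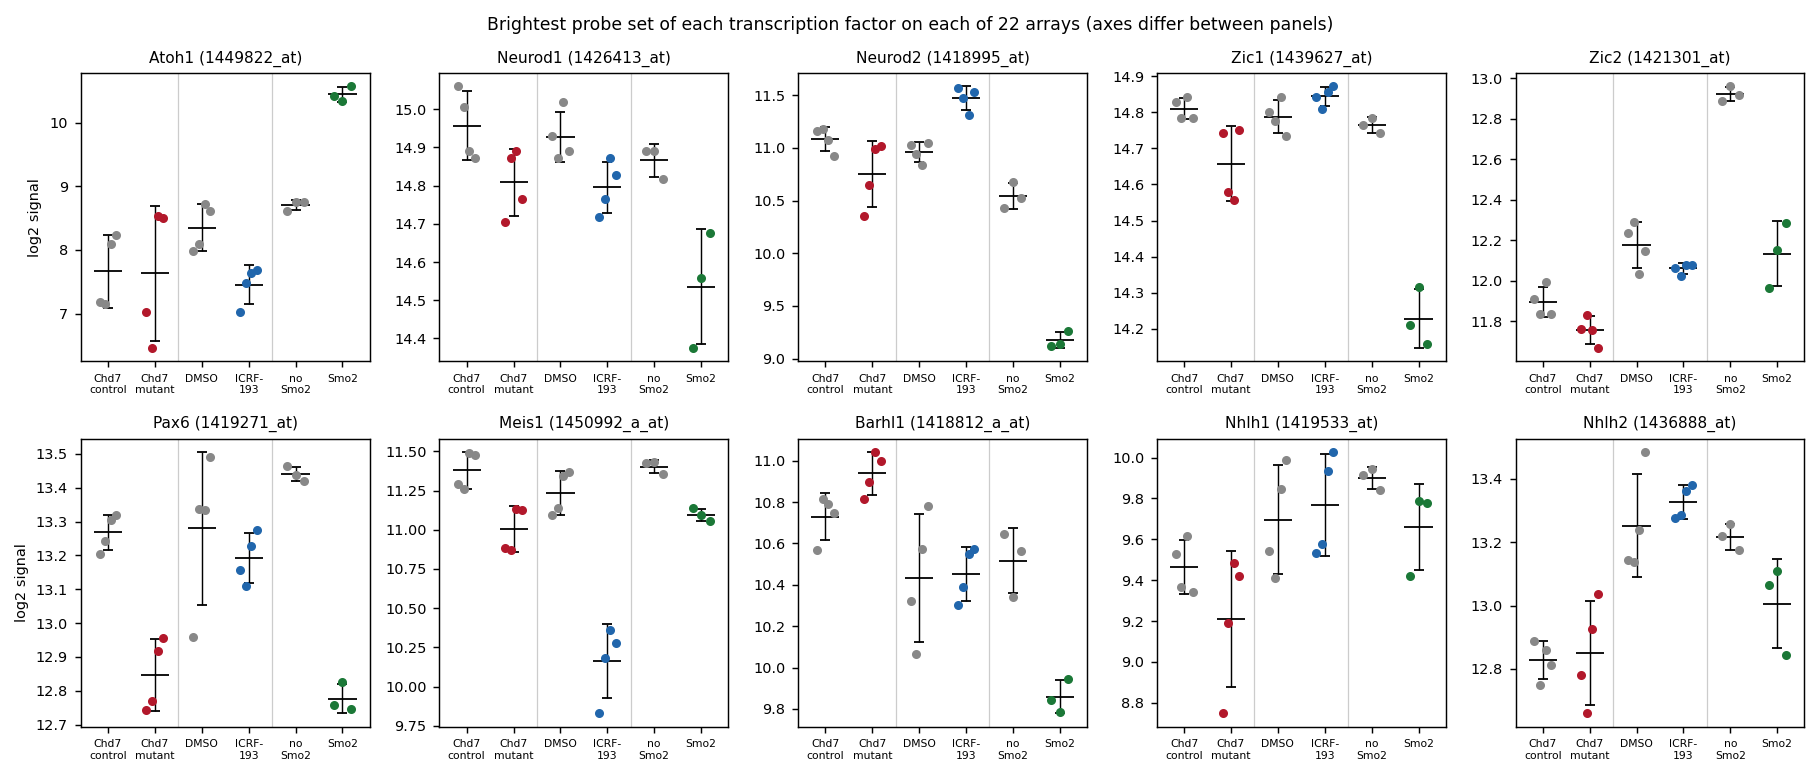
Log2 signal of the brightest probe set of each of the 10 members on each of the 22 arrays, by group, with 1 point per array, the group mean as a line and its SD as a bar, on an axis of its own for each gene. Atoh1 sat between 10.35 and 10.57 with Smo2 and at or below 8.76 on all other arrays, and Neurod2 was lowest with Smo2, between 9.12 and 9.26.

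Facts of the whole series that touch these values were few. No 2 arrays were identical in 231 pairs. Chd7 itself checked the labels of the mutant comparison: its probe set 1437745_at read 9.47 ± 0.54 (SD, n = 4) in mutants against 11.50 ± 0.23 in controls, a change of -2.03 (adjusted p = 0.00338). The brighter probe set 1448026_at read 11.65 ± 0.25 and 11.89 ± 0.13 and was not called (-0.25, adjusted p = 0.299), so the check rests on the dimmer of the 2. Replicates 1 and 2 of the Chd7 and ICRF-193 profilings stood apart from replicates 3 and 4 in each group, as the values below show for Atoh1, so values within each of these sets are given where they differ. The summed signal of 3 Y-linked genes (Eif2s3y, Kdm5d and Uty) was 1221 to 1746 in Chd7 control arrays and 48.0 to 399.1 in mutant arrays, and Xist, which is made from an inactive X chromosome, was 13.68 ± 0.14 in mutants and 12.93 ± 0.56 in controls (adjusted p = 0.116). Chd7 genotype and the sex of the pups therefore cannot be told apart in the first comparison. In the other comparisons the Y-linked sums overlapped for ICRF-193 (1047 to 2656 with DMSO and 1145 to 2595 with the drug) and were 1726 to 1813 without and 1521 to 1679 with Smo2.

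The comparison of Chd7 mutant with control asked which genes depend on this remodeller in CGNs. Neurod1, at its dimmer probe set alone, and Pax6 fell in the mutant, by 1.38-fold and 1.34-fold, and no member was called higher. Atoh1, Nhlh2 and Barhl1 had no called change, and Neurod2, Zic1, Zic2 and Meis1 read lower without passing the test across all their probe sets. Of the 19 tested probe sets, 4 were called lower, against 3.46% of all tested probe sets, and 0 higher, against 3.42%. At an unadjusted p below 0.05, limma gave 8 lower and 1 higher, against 12.4% and 10.8% of all tested probe sets. The median change of the member probe sets was -0.25, with 17 of 19 negative, beside -0.02 over all tested probe sets. Over the whole array 778 were called lower and 769 higher, and with median centring 945 and 551. The groups did not overlap for 9 of the 19, against 17.5% of all tested probe sets.

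Atoh1 showed no called change and a wide spread. Its 4 control arrays read 7.18, 7.16, 8.09 and 8.23 and the 4 mutant arrays 7.02, 6.46, 8.54 and 8.51. Replicates 1 and 2 were the low arrays of both groups, and the groups overlapped. The change was -0.03 (SE 0.51, 95% interval -1.21 to 1.14, adjusted p = 0.981), so the interval holds doubling and halving alike. Within replicates 1 and 2 the change was -0.43, and within replicates 3 and 4 it was 0.37.

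Among the differentiation factors, the Neurod1 probe set 1426412_at read 14.64, 14.56, 14.69 and 14.63 in controls and 14.31, 14.09, 14.10 and 14.16 in mutants. All 4 mutant arrays lay below all controls, and the change was -0.47 (SE 0.0715, 95% interval -0.63 to -0.30, adjusted p = 0.00814). The other Neurod1 probe set, 1426413_at, differed by -0.15 (95% interval -0.32 to 0.02, adjusted p = 0.281), with overlapping groups. The probe sets of Neurod1 thus gave unlike sizes, and the brighter one did not pass the test.

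The Neurod2 probe set 1435411_at read 11.00, 11.00, 11.02 and 11.16 in controls and 10.43, 10.40, 10.97 and 10.64 in mutants. The mutant arrays were all lower, but replicate 3 lay just under the lowest control, and the change of -0.44 did not pass (adjusted p = 0.0843). Without mutant replicate 3 the adjusted p was 0.0191, and with the sets of replicates as a block it was 0.0246. The probe set 1418995_at read 11.16, 11.18, 11.07 and 10.93 in controls and 10.35, 10.65, 10.99 and 11.02 in mutants, a change of -0.33 (adjusted p = 0.234). Here replicates 1 and 2 of the mutant were low and replicates 3 and 4 lay among the controls: the change was -0.67 within the first set and 0.00 within the second. The dim probe set 1444362_at read 5.36 to 5.82 in controls and 4.00 to 5.17 in mutants, without overlap and without a test. Nhlh1 differed by -0.25 (adjusted p = 0.390) and Nhlh2 by 0.02 (adjusted p = 0.913).

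Pax6 had 5 tested probe sets, of which 3 were called lower. The brightest, 1419271_at, read 13.21, 13.24, 13.30 and 13.32 in controls and 12.74, 12.77, 12.92 and 12.96 in mutants. Mutant arrays lay below all controls by a clear gap, with a change of -0.42 (SE 0.0728, 95% interval -0.59 to -0.26, adjusted p = 0.0135). The probe set 1425960_s_at changed by -0.41 (adjusted p = 0.00856) and 1452526_a_at by -0.43 (adjusted p = 0.0356). The call for 1452526_a_at was lost without any 1 of the 4 control arrays or of mutant replicates 1 and 2, with adjusted p between 0.0643 and 0.0940. The dimmer probe sets 1456342_at and 1437816_at differed by -0.38 and -0.17 and were not called.

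The other zinc finger and homeodomain members moved less. Zic1 differed by -0.15 (adjusted p = 0.236) at 1439627_at and by -0.20 (adjusted p = 0.0848) at 1423477_at, and Zic2 by -0.14 (adjusted p = 0.270). With the sets of replicates as a block 1423477_at was called (adjusted p = 0.0442), as it was with all arrays in 1 fit (0.0338) and without the filter (0.0423), while with the replicate number as a block it was not (0.115). The mutant arrays lay below all controls at these 3 probe sets, though for Zic2 the highest mutant and the lowest control were both 11.83. The Meis1 probe set 1450992_a_at read 11.29, 11.26, 11.49 and 11.48 in controls and 10.88, 10.87, 11.13 and 11.13 in mutants. The groups did not overlap, replicates 1 and 2 were lower in both, and the change of -0.37 had an adjusted p of 0.0544. Fitted with the replicate number as a block it had an adjusted p of 0.0224, and the other Meis1 probe set, 1443260_at, which differed by -0.39 (adjusted p = 0.223), had 0.0254. Barhl1 differed by 0.21 (adjusted p = 0.180) at 1418812_a_at and by -0.08 (adjusted p = 0.743) at 1418811_at.

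**Figure D2:**
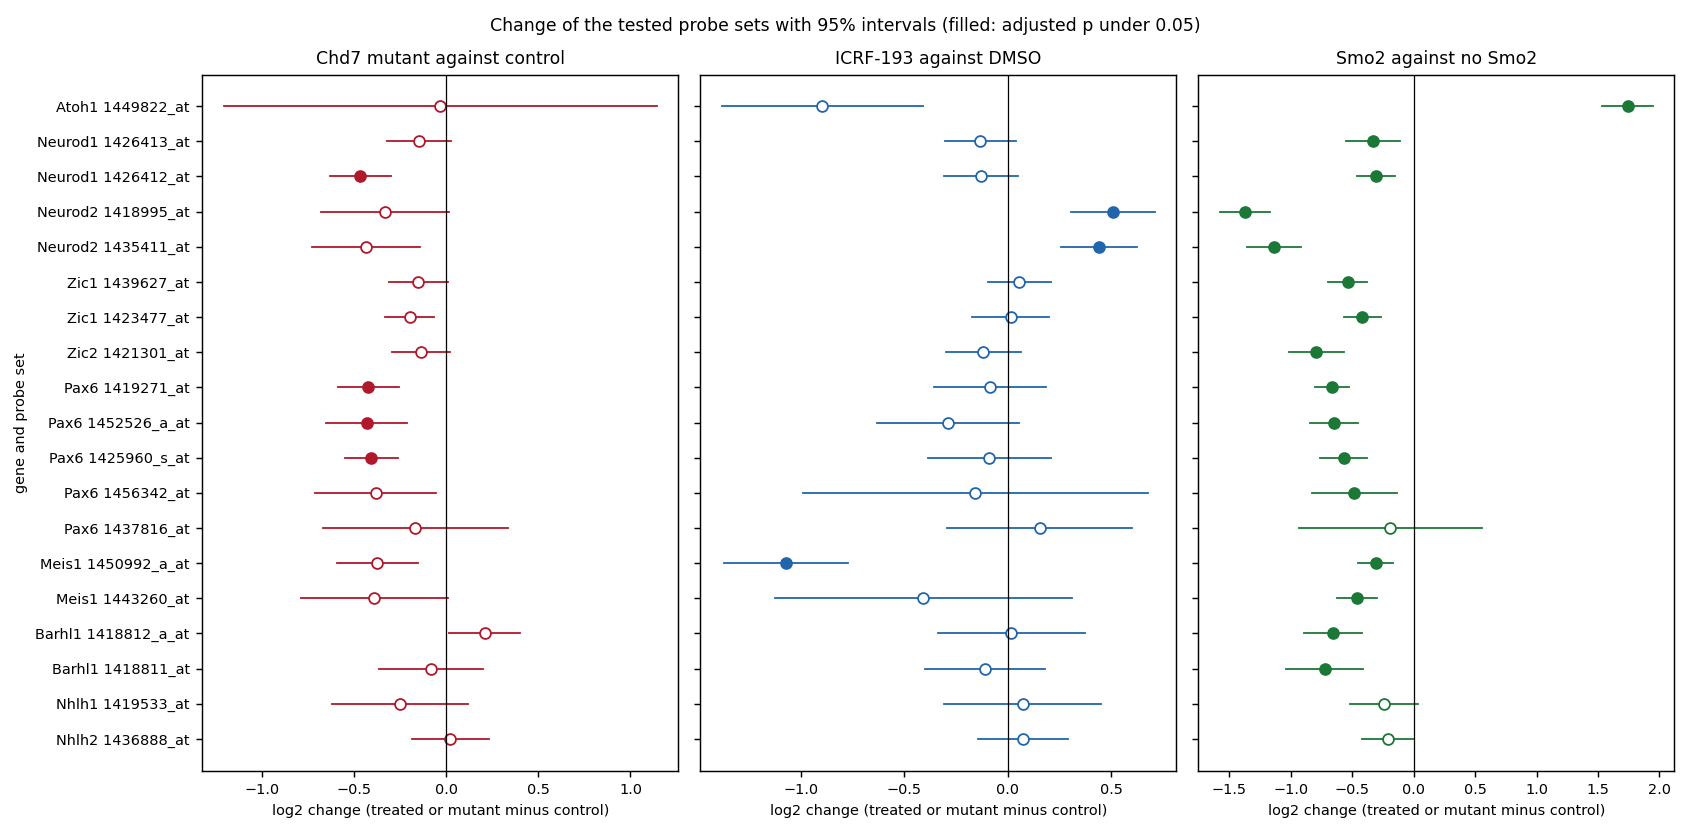
Change in log2 signal of each tested member probe set in the 3 comparisons, with the 95% interval from limma as a bar, the zero line marked and filled points for calls. In the Chd7 comparison the Neurod1 and Pax6 probe sets that were called lie between -0.47 and -0.41, whereas with Smo2 the members spread from -1.37 for Neurod2 to 1.74 for Atoh1.

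The comparison of ICRF-193 with DMSO asked which genes change when topoisomerase II is inhibited in these cells. Meis1 fell by 2.10-fold and Neurod2 rose by 1.42-fold. Atoh1 was lower in all 4 treated arrays at an adjusted p just above the threshold, and Neurod1, Pax6, Zic1, Zic2, Barhl1, Nhlh1 and Nhlh2 had no call. Of 19 tested probe sets, 1 was called lower, against 2.78% of all tested probe sets, and 2 higher, against 1.98%. At an unadjusted p below 0.05, limma gave 2 lower and 2 higher, against 3788 of all 22496 tested probe sets in both directions. The median change of the members was -0.09, with 11 of 19 negative, beside 0.01 over all probe sets. The groups did not overlap for 4 of the 19, against 12.4% of all tested probe sets.

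Atoh1 read 7.98, 8.09, 8.72 and 8.62 with DMSO and 7.02, 7.48, 7.64 and 7.69 with ICRF-193. Every treated array lay below every DMSO array, and replicates 3 and 4 were the higher ones in both groups. The change was -0.90 (SE 0.21, 95% interval -1.38 to -0.41), or 1.86-fold lower, with an adjusted p of 0.0527. Fitted with the replicate number as a block, the adjusted p was 0.00879.

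The Meis1 probe set 1450992_a_at read 11.09, 11.14, 11.34 and 11.37 with DMSO and 9.83, 10.18, 10.36 and 10.28 with ICRF-193. Every treated array lay below every DMSO array, with no value between 10.36 and 11.09, and the change was -1.07 (SE 0.13, 95% interval -1.37 to -0.77, adjusted p = 0.0023). The second Meis1 probe set, 1443260_at, read 9.02, 9.04, 9.94 and 10.03 with DMSO and 8.56, 8.86, 9.61 and 9.38 with the drug. Its values split by replicate set in both groups, so that the groups overlapped, and the change of -0.41 was not called (95% interval -1.13 to 0.31, adjusted p = 0.594). With the sets as a block its adjusted p was 0.0402. The probe sets of Meis1 thus gave unlike sizes, 1 past the test and 1 not.

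Neurod2 was the only member called higher. Its probe set 1418995_at read 11.02, 10.94, 10.84 and 11.04 with DMSO and 11.57, 11.47, 11.31 and 11.53 with ICRF-193, and 1435411_at read 10.84, 10.84, 11.03 and 11.03 against 11.34, 11.37, 11.44 and 11.36. All treated arrays were above all DMSO arrays for both. The changes were 0.51 (SE 0.0884, 95% interval 0.31 to 0.71, adjusted p = 0.0136) and 0.44 (SE 0.0801, adjusted p = 0.0164). With median centring in place of quantile normalisation the changes were 0.45 and 0.38 and neither was called (adjusted p = 0.268 and 0.182). Over all alternatives run the changes ran from 0.45 to 0.56 and from 0.37 to 0.52. The call for 1435411_at was also lost without DMSO replicate 1 (adjusted p = 0.0557) or 2 (0.0502) or without ICRF-193 replicate 2 (0.0501) or 3 (0.0552). The dim Neurod2 probe set read 4.00 to 4.87 with DMSO and 4.41 to 5.10 with the drug. Its groups overlapped.

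The remaining members had small differences with ICRF-193. Neurod1 differed by -0.13 at both probe sets (adjusted p = 0.442 and 0.474), Zic1 by 0.06 and 0.02, Zic2 by -0.12, Nhlh1 by 0.07 and Nhlh2 by 0.07. The 5 Pax6 probe sets differed by between -0.29 and 0.16, and the Barhl1 probe sets by 0.02 and -0.11. None of these passed the test.

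**Figure D3:**
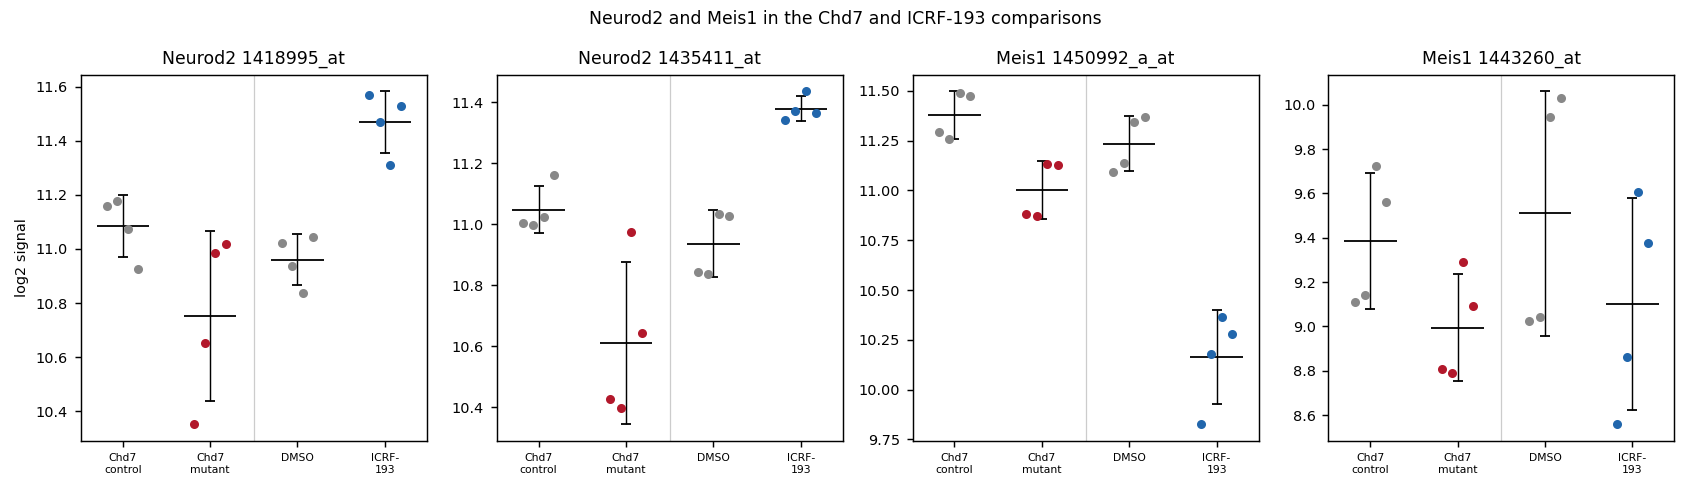
Log2 signal of the tested Neurod2 and Meis1 probe sets on each array of the Chd7 and ICRF-193 profilings, with 1 point per array, the group mean as a line and its SD as a bar. Neurod2 (1418995_at) lay between 10.84 and 11.04 with DMSO and between 11.31 and 11.57 with ICRF-193, and Meis1 (1450992_a_at) between 9.83 and 10.36 with the drug.

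Whether a member responded differently to Chd7 loss and to ICRF-193 was tested as the difference of the changes in a fit of 16 arrays. Chd7 itself changed with ICRF-193 by -1.35 at 1448026_at and -1.28 at 1437745_at (limma, adjusted p = 0.000883 and 0.00547). Its signal at 1437745_at was thus lower in both the mutant and the drug-treated arrays. Neurod2 differed between Chd7 loss and ICRF-193 at both tested probe sets, and Meis1 at 1 of 2. Of the 19 probe sets, 2 were called lower (a change more negative in the Chd7 mutant), against 1.88% of all tested probe sets, and 1 higher, against 2.8%. The Neurod2 difference was -0.84 (SE 0.18, 95% interval -1.22 to -0.46, adjusted p = 0.0134) at 1418995_at and -0.88 (SE 0.15, adjusted p = 0.00331) at 1435411_at. The 2 changes behind it were -0.33 and 0.51 at the former and -0.44 and 0.44 at the latter. The Meis1 difference was 0.70 (SE 0.16, 95% interval 0.34 to 1.05, adjusted p = 0.0248) at 1450992_a_at, where both changes were negative and that with ICRF-193 was the larger. At 1443260_at it was 0.02 (adjusted p = 0.990). The Meis1 call was lost without any 1 of 5 arrays, Chd7 control replicates 1 and 2, mutant replicates 3 and 4 and DMSO replicate 3, with adjusted p between 0.0525 and 0.0556. For Neurod1 (1426412_at) the difference was -0.33 (adjusted p = 0.0686), for Pax6 (1419271_at) -0.34 (adjusted p = 0.217) and for Atoh1 0.87 (95% interval -0.40 to 2.14, adjusted p = 0.507). With the sets of replicates as a block, Neurod1 (adjusted p = 0.0294) and Atoh1 (0.031) were called in this difference, and with the replicate number as a block they were not (0.0604 and 0.0686). Neurod1 was also called with all arrays in 1 fit (0.0262), without mutant replicate 1 (0.0361) and without DMSO replicate 4 (0.0458). For these members the answer thus depended on the fit.

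The comparison of cultures with and without Smo2 gave the widest changes. Atoh1 rose 3.34-fold, while Neurod2 fell 2.58-fold and Zic1, Zic2, Pax6, Meis1, Barhl1 and Neurod1 fell by less. Nhlh1 and Nhlh2 were not called. Of the 19 tested probe sets, 15 were called lower, against 34.9% of all tested probe sets, and 1 higher, against 26.4%. The median change of the members was -0.48, with 18 of 19 negative, beside -0.10 over all tested probe sets. The groups did not overlap for 18 of the 19, against 67.9% of all tested probe sets. With median centring in place of quantile normalisation the median of all tested probe sets was 0.02 in place of -0.10, and over the whole array 6173 were called lower and 7453 higher in place of 7841 and 5932. The member changes are therefore to be read relative to that median.

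Atoh1, the progenitor factor, read 8.61, 8.75 and 8.76 without Smo2 and 10.42, 10.35 and 10.57 with it. The groups lay far apart, with a change of 1.74 (SE 0.0841, 95% interval 1.54 to 1.95, adjusted p = 2.28e-05). Atoh1 was the only member called higher in this comparison.

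**Figure D4:**
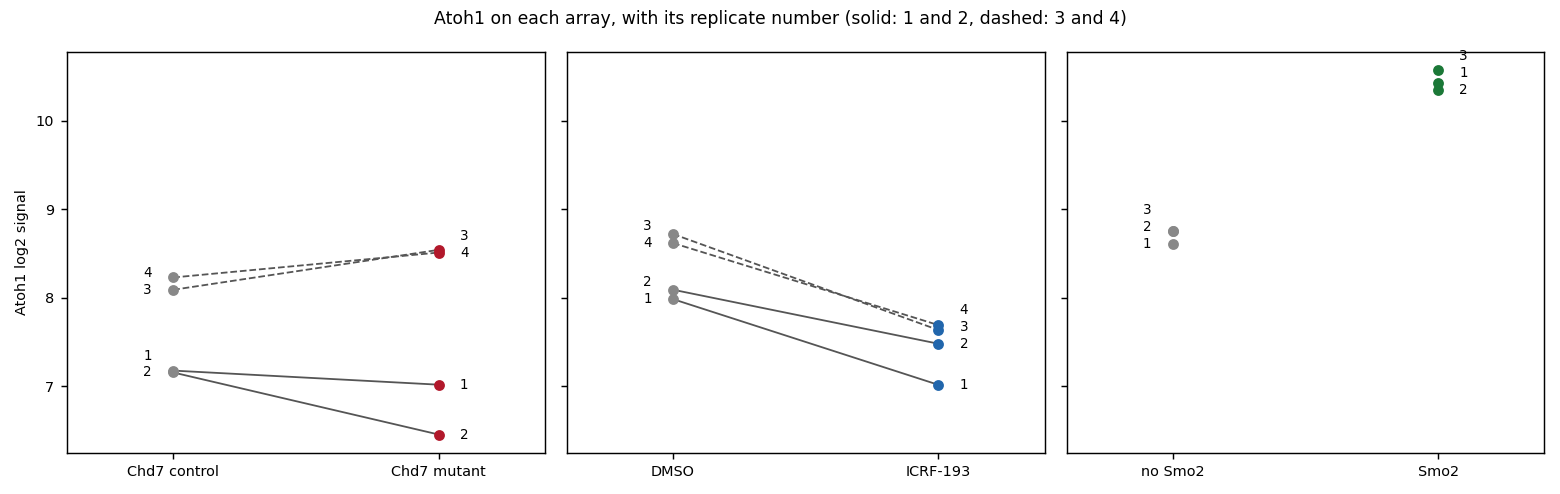
Log2 signal of the Atoh1 probe set on each of the 22 arrays, by group, with the replicate number beside each point and lines that join equal numbers in the Chd7 and ICRF-193 profilings (solid for 1 and 2, dashed for 3 and 4). Replicates 1 and 2 lie below 3 and 4 in both Chd7 groups and both ICRF-193 groups, while the 3 Smo2 arrays lie between 10.35 and 10.57.

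Neurod2 (1418995_at) read 10.43, 10.68 and 10.53 without Smo2 and 9.12, 9.14 and 9.26 with it, and 1435411_at read 10.42, 10.59 and 10.50 against 9.21, 9.43 and 9.47. The Smo2 arrays were the lowest of all 22 at both probe sets. The changes were -1.37 (SE 0.0844, adjusted p = 5.04e-05) and -1.14 (adjusted p = 0.000127), and the dim probe set read 6.22 to 6.50 without and 4.31 to 5.43 with Smo2. Neurod1 fell by a smaller step, from 14.89, 14.89 and 14.82 to 14.37, 14.56 and 14.68 at 1426413_at. The change was -0.33 (adjusted p = 0.0192), lost without replicate 1 (adjusted p = 0.0557) or 2 (0.0548) of the cultures without Smo2. At 1426412_at Neurod1 changed by -0.31 (adjusted p = 0.00695). With median centring that change was -0.11 and not called (adjusted p = 0.243).

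Zic2 read 12.89, 12.96 and 12.92 without Smo2 and 11.96, 12.15 and 12.28 with it. The highest Smo2 array lay well below the lowest of the others, with a change of -0.79 (adjusted p = 0.000588), or 1.73-fold lower. Zic1, its close relative, fell by 0.54 (adjusted p = 0.000673) at 1439627_at and by 0.42 (adjusted p = 0.00169) at 1423477_at. Pax6 (1419271_at) read 13.46, 13.44 and 13.42 without Smo2 and 12.76, 12.83 and 12.75 with it, a change of -0.66 (adjusted p = 0.000158). The arrays within a group lay close together against the gap between the groups, of 13.42 to 12.83. The Pax6 probe sets 1452526_a_at, 1425960_s_at and 1456342_at fell by 0.65, 0.57 and 0.48. The last of these, with an adjusted p of 0.0253, lost its call without replicate 1 or 2 of the cultures without Smo2 or replicate 2 or 3 with it (adjusted p between 0.0509 and 0.0769). The probe set 1437816_at, whose values ran from 5.78 to 7.43 over all arrays, differed by -0.19 (95% interval -0.93 to 0.55, adjusted p = 0.616).

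Barhl1 read 10.64, 10.34 and 10.56 without Smo2 and 9.85, 9.79 and 9.94 with it at 1418812_a_at, a change of -0.66 (adjusted p = 0.00156), and fell by 0.72 (adjusted p = 0.00339) at 1418811_at. Groups did not overlap at either probe set. Meis1 (1450992_a_at) read 11.42, 11.43 and 11.35 without and 11.14, 11.09 and 11.05 with Smo2, a change of -0.31 (adjusted p = 0.00451). With median centring it was -0.11 (adjusted p = 0.195). At 1443260_at Meis1 fell by 0.46 (adjusted p = 0.0014). Nhlh1 differed by -0.24 (95% interval -0.51 to 0.04, adjusted p = 0.112) and Nhlh2 by -0.21 (adjusted p = 0.0749), both with groups that did not overlap. The Nhlh2 change was 0.07 with median centring.

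Across the 6 groups, the profilings themselves differed in level, and an order across them is a description. For Atoh1 the group means ran from 7.46 with ICRF-193, through 7.63 in Chd7 mutants, 7.66 in Chd7 controls, 8.35 with DMSO and 8.71 without Smo2, to 10.45 with Smo2. The first 3 of these neighbours lay within their spread, the SD being 1.06 in mutants and 0.58 in Chd7 controls. For Neurod2 (1418995_at) the mean was lowest with Smo2, at 9.17, and highest with ICRF-193, at 11.47, with 10.55 to 11.08 in the other 4 groups. Probe sets of 1 gene moved together to different degrees after the mean of each profiling was subtracted: Pearson's r over the 22 arrays was 0.93 for Neurod2, 0.91 for Zic1, 0.70 for Meis1, 0.60 for Barhl1 and 0.58 for Neurod1. The Pax6 probe set 1437816_at had an r of 0.01 to 0.15 with the others of its gene. Arrays of 1 profiling share cells, processing and the group difference, so these are descriptions. By the same measure the genes most like Atoh1 were Tead2 (r = 0.93), Cxcr4 (0.90) and Tgif2 (0.90). Those most like Neurod2 were Enho (0.96), Ccdc177 (0.95) and Cxcl12 (0.94). Pax6 was followed most closely by Chfr (0.94), and Meis1 by Ptprd (0.97), Nfib (0.95) and Reln (0.95).

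Genes of the same families as the members, by their brightest probe set, included 8 that were tested. In the Chd7 mutant 2 fell and 1 rose, with a median of -0.17. Neurod6, a NEUROD family bHLH factor, fell by 2.11 (adjusted p = 2.59e-05) from 10.68 ± 0.09 to 8.57 ± 0.11, a change of greater size than that of any member. Neurod4 rose by 0.98 (adjusted p = 0.00867) and Barhl2 fell by 0.59 (adjusted p = 0.00435). With ICRF-193 limma called 0 of the 8, with 2 lower and 1 higher at an unadjusted p below 0.05. With Smo2 5 fell and 1 rose, with a median of -0.40: Neurod4 rose by 1.27, and Zic4, Meis3 and Zic5 fell by 0.97, 0.81 and 0.44. Neurod4 thus rose in the Chd7 mutant and with Smo2. The member Neurod1 fell with Smo2, and in the Chd7 mutant was called lower at its dimmer probe set alone.

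The partners and inhibitors of the bHLH members and the PBX partners of Meis1 gave 12 tested genes. In the Chd7 mutant Id2, an inhibitor that binds bHLH partner proteins, rose by 0.62 (adjusted p = 0.00692) and Pbx3 fell by 0.45 (adjusted p = 0.0429), the 2 genes called. With ICRF-193 Tcf4, a partner of bHLH factors, fell by 0.60 (adjusted p = 0.0141) and the inhibitor Id4 rose by 0.58 (adjusted p = 0.0418). With Smo2 5 rose and 5 fell, with a median of 0.15. Id1 rose by 2.95 and the partner Tcf3 by 1.35, while Id3 and Id4 fell by 1.73 and 1.35, so the inhibitors of the ID family did not move one way.

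Hedgehog targets and cell cycle genes, which mark the dividing state in which Atoh1 is made, stood beside the members as follows. Of 9 hedgehog targets 1 rose and 1 fell in the Chd7 mutant: Ccnd1, a cyclin of the G1 phase, by 1.05 (adjusted p = 0.00148) and Sfrp1 by -0.72 (adjusted p = 0.00104). Their median there was 0.48, with 4 higher and 2 lower at an unadjusted p below 0.05 in limma. With ICRF-193 Mycn rose by 0.71 (adjusted p = 0.0219), and with Smo2 8 of the 9 rose, Ccnd1 by 5.73, Gli2 by 4.13, Gas1 by 2.39 and Sfrp1 by 2.00. Of 11 cell cycle genes, all 11 rose with Smo2, with a median of 3.20. In the Chd7 mutant Mcm6 rose by 0.90 (adjusted p = 0.0282), the 1 call there, and the median of the 11 was 0.47, with 1 negative. At an unadjusted p below 0.05 limma had 3 of the 11 higher, against 10.8% of all tested probe sets, and 0 lower. With ICRF-193 limma called 0, with 2 higher at an unadjusted p below 0.05. Of 11 genes of granule neuron differentiation, all 11 fell with Smo2, with a median of -1.02, led by Fat2 (-1.84), Mapt (-1.66), Dcx (-1.20) and Cntn2 (-1.08). In the Chd7 mutant limma called 0 of these 11, with 3 lower at an unadjusted p below 0.05, and with ICRF-193 only Rbfox3, a neuronal RNA-binding protein, fell, by 1.02 (adjusted p = 0.000237). The member Neurod2 rose in that comparison, while Rbfox3 fell.

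**Figure D5:**
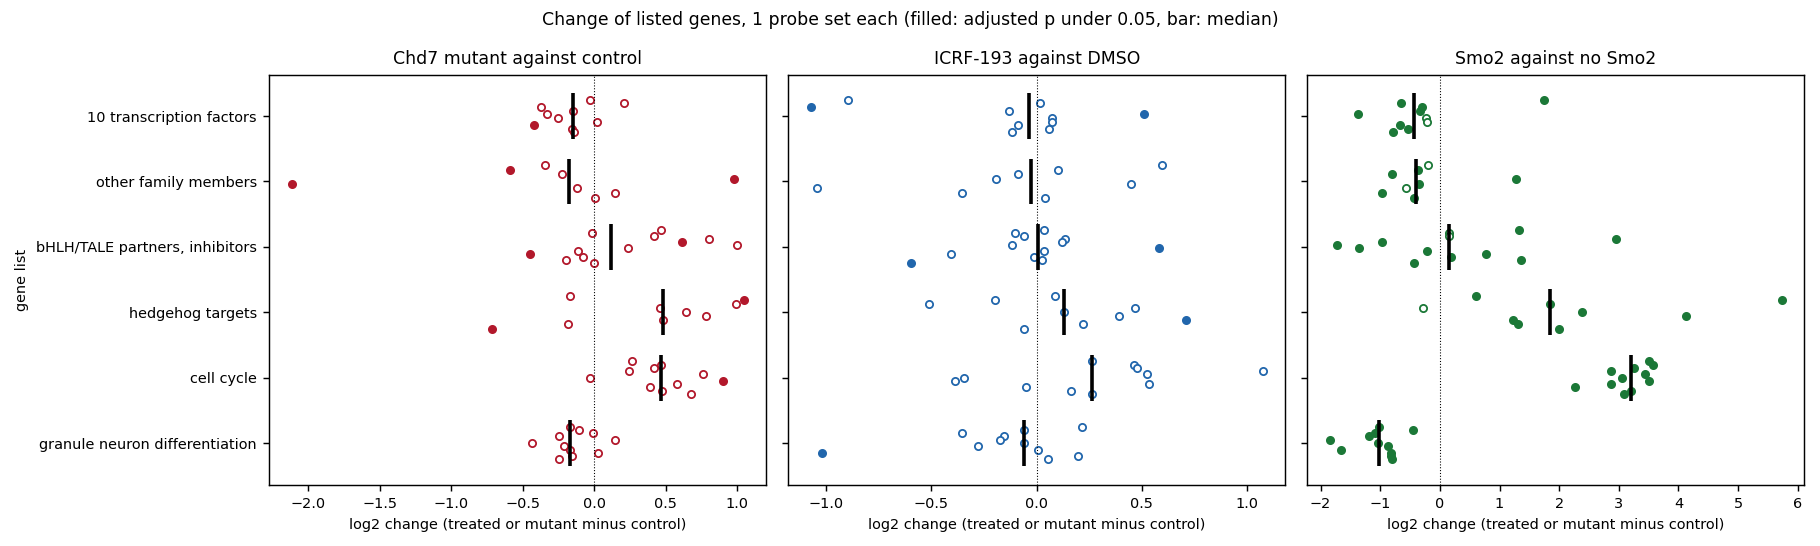
Change in log2 signal of the 10 members and of the tested genes of 5 other lists in the 3 comparisons, 1 point per gene by its brightest probe set, filled where called, with the median of the list as a bar and an axis of its own for each comparison. With Smo2 the cell cycle list sits at 3.20 and the differentiation list at -1.02, with the members at -0.43.

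Markers of other cell types moved with some of these results. In the Chd7 comparison Pax6 and the dimmer Neurod1 probe set fell. There the summed signal of oligodendrocyte lineage markers was 4559 to 10940 in controls and 13820 to 17600 in mutants. That list had 1 of 6 tested genes called higher, Pdgfra by 1.02. Its median change was 1.07, with 4 higher and 0 lower at an unadjusted p below 0.05 in limma, against 10.8% of all tested probe sets higher. Astrocyte and Bergmann glia markers summed to 8610 to 19450 and 11110 to 37650, with 1 of 10 called higher (Gja1 by 0.86), and fibroblast and pericyte markers to 2962 to 5990 and 5622 to 11560, with 2 of 6 called higher (Dcn by 1.50 and Pdgfrb by 0.81). The median change was 0.75 for the astrocyte list and 0.83 for the fibroblast list, each with 2 higher and 0 lower at an unadjusted p below 0.05 in limma. The microglia markers summed to 2330 to 4611 and 798.3 to 3454, and limma called 0 of 5, with 2 lower at an unadjusted p below 0.05. Markers of unipolar brush and nuclear neurons, of which 3 were tested, summed to 6788 to 7832 in controls and 8837 to 9117 in mutants, with a median change of 0.27. Of these, Eomes fell by 0.38 (adjusted p = 0.0285), while Calb2 and Otx2 differed by 0.68 (adjusted p = 0.108) and 0.27 (adjusted p = 0.191). The remaining marker lists of the Chd7 comparison, of GABAergic interneurons (5 tested), Purkinje cells (3) and endothelium (1), had 0 calls from limma and 0 at an unadjusted p below 0.05. The part of these cells in the lower Neurod1 and Pax6 values was not tested.

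With ICRF-193, in which Meis1 fell and Neurod2 rose, the glial and vascular lists had no call from limma. Astrocyte markers summed to 4482 to 6869 with DMSO and 4506 to 6168 with the drug (2 of 10 lower at an unadjusted p below 0.05), oligodendrocyte markers to 6344 to 9495 and 5450 to 8139 (4 of 6 lower and 1 higher), and microglia markers to 1804 to 4086 and 1311 to 3968 (0 of 5). Fibroblast and pericyte markers summed to 1206 to 2159 and 1038 to 1696 (1 of 6 higher), and Purkinje cell and endothelial markers had 0. Gad1, of GABAergic interneurons, fell by 0.42 (adjusted p = 0.0381), the 1 call among 5. Eomes rose by 0.95 (adjusted p = 0.00171), the 1 call among 3 markers of unipolar brush and nuclear neurons, which summed to 6142 to 6855 with DMSO and 7885 to 10330 with the drug. With Smo2, in which Atoh1 rose, all 5 microglia markers were called lower, as were 7 of 10 astrocyte markers, with the other 3 higher (Gja1, Sox9 and Slc1a2 by 1.56, 1.94 and 0.78). Of 5 tested GABAergic interneuron markers 4 were lower and 1, Lhx1, higher by 0.55. Pvalb of that list, too dim for a test, read 4.24 ± 0.42 without and 8.09 ± 0.11 with Smo2, without overlap. Microglia markers summed to 1243 to 1753 without and 570.2 to 822.8 with Smo2, and astrocyte markers to 8564 to 9839 and 6012 to 7047. All 3 tested markers of unipolar brush and nuclear neurons were lower. Of those too dim for a test, Lhx2 read 4.25 ± 0.43 without and 6.73 ± 0.15 with Smo2, without overlap. The groups overlapped for Lmx1a, Tbr1 and Lhx9. Of 6 oligodendrocyte markers 3 were higher and 2 lower (Sox10 by -2.11 and Mbp by -1.10), and their sum was 8968 to 9463 without and 7890 to 8017 with Smo2. Of 3 Purkinje cell markers 2 were higher and 1, Calb1, lower by 0.74, and 1 of 6 fibroblast and pericyte markers was higher. The only tested endothelial marker was not called. What part these cells had in the member changes was not tested.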

How the data were processed

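Total RNA was hybridised to 22 Affymetrix whole-genome mouse arrays. The deposited intensity values, 1 per probe set, are on a linear scale. After trimming 2% at each end, their mean is 500 on every array. The authors summarised the probes with software not given in the sources used here. Intensities were raised to a floor of 16, log2 transformed and quantile normalised over the 22 arrays, and 64 control probe sets were left out. The number of arrays limits the precision. Probe sets with a mean of at least 6.44 were tested (22496), each comparison in its own fit, with limma 3.58.1 in R 4.3.3 (lmFit and eBayes, two-sided, Benjamini-Hochberg, threshold 0.05). The difference of the Chd7 and ICRF-193 effects was a contrast in a fit of both. The steps were tested on simulated data. Plots came from Python 3.11.15 with matplotlib 3.10.9.

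All 21 member probe sets are named, whether called or not. For a gene, the brightest probe set stands in lists and likeness. From other lists, up to 4 called genes per comparison are named by size. Likeness is Pearson's r over 22 arrays after subtracting the mean of each profiling. Probe sets were named from the platform annotation: 34958 have 1 symbol, 932 several and 9211 none. Of the listed genes, 9 were not used here because no probe set had that symbol alone. The members and lists were chosen with earlier results of these data known.

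Same-numbered replicates deviated together in the Chd7 profiling (r = 0.30 to 0.35) and in the ICRF-193 profiling (r = 0.28 to 0.41). Different numbers of the same set (1 with 2, 3 with 4) did so to a like degree (r = 0.27 to 0.36 and 0.32 to 0.34). The values thus show the sets, and show no pairing by number within a set. The number and the set were each used as a block. The labels give the sets no meaning. Alternatives tried were no normalisation, median centring, a floor of 32, no filter, 1 probe set per gene, all arrays in 1 fit, the replicate and set blocks, values within each set, set means, the methods' t-test and leaving out each array.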

Additional observations from a re-analysis of the deposited data

How the results depend on the processing

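The 666 recomputed member changes were of the brightest probe set of each gene, and in the difference of Neurod1, Neurod2, Pax6 and Meis1 alone. Of these, 606 kept their direction and their side of the threshold, 18 lost the call, 17 gained it and 25 changed sign. The cause of these moves was not tested. Called probe sets outside that count were less or equally steady. For Chd7, Neurod1 1426412_at was called in 18 of 20 alternatives, Pax6 1425960_s_at in 17 and Pax6 1452526_a_at in 9. With ICRF-193 Neurod2 1435411_at was called in 12 of 20. A change given below for a gene is of its brightest probe set unless another is named. Below, a count of members called is a count of member probe sets, so 1 gene can count more than once. Unless stated, 19 of the 22496 tested probe sets were of members, and a count over all is for the same direction. The Neurod2 difference between Chd7 loss and ICRF-193 was called under every alternative run for it. The fits within each set and the set means were not run for the difference. As reported, 1547 probe sets were called for Chd7, 1072 for ICRF-193, 13773 for Smo2 and 1054 for the difference of the Chd7 and ICRF-193 changes. Without normalisation the Atoh1 change in the Chd7 mutant was 0.0288. With median centring Nhlh2 changed by -0.0562 in the Chd7 mutant and by 0.0685 with Smo2, and Barhl1 by -0.0266 with ICRF-193. ICRF-193 then gave 2 members lower, against 464 of all, and 0 higher, against 252. At an unadjusted p below 0.05 limma then had 5 members, against 2673 of all in both directions. The difference then had 627 calls. Without the filter 21 of the 45037 tested probe sets were of members. There limma called 0 members higher in the difference, against 526 of all. It had 9 members at an unadjusted p below 0.05, against 5476 of all in both directions. With 1 probe set per gene 10 of the 10771 tested were of members. Called lower were 2 members against 412 of all for Chd7, 7 against 4197 for Smo2 and 1 against 282 for the difference. The calls in both directions were 958, 7391 and 699. ICRF-193 had 2 lower, against 375 of all, and 1 higher, against 340. With all arrays in 1 fit Chd7 had 7 members lower, against 1114 of all, and ICRF-193 had 2099 calls. The methods' t-test at an unadjusted 0.05 gave 9 member probe sets lower for Chd7, against 2673 of all, and 1 higher, against 2397 (5070 calls). Those lower were of Neurod1, Neurod2, Zic1, Zic2, Pax6 and Meis1. For ICRF-193 it gave 3 lower, against 1773 of all (3801 calls). It was not run for the difference. Within replicates 1 and 2 Chd7 had 1 member lower, against 418 of all (977 calls), and Nhlh2 changed by -0.10. There ICRF-193 had 0 lower and 0 higher, against 216 and 84 of all (300 calls). At an unadjusted p below 0.05 limma had 4 members, against 3580 of all in both directions. Within replicates 3 and 4 Chd7 had 1 member lower, against 771 of all, and Atoh1 changed by 0.37 and Neurod2 by 0.0027. There ICRF-193 had 2 lower and 0 higher, against 176 and 65 of all (241 calls), and Barhl1 changed by -0.12. At an unadjusted p below 0.05 limma had 7 members, against 3380 of all in both directions. With the means of the sets as samples limma called 0 probe sets and 0 members in either direction, with 2266 probe sets and 5 members for Chd7 and 2154 and 4 for ICRF-193 at an unadjusted p below 0.05.

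With the replicate number as a block 2043 probe sets were called for Chd7, 1432 for ICRF-193 (2 members lower, against 798 of all), 13179 for Smo2 and 1771 for the difference. Smo2 replicates share only a number (r = 0.02 to 0.04). With the replicate sets as a block Chd7 had 8 members lower, against 1760 of all, and ICRF-193 3 lower, against 1050. The difference had 2 higher, against 1291 of all. The calls in both directions were 3654, 1987 and 2388. Leaving out each array in turn gave 830 to 1110 calls for Chd7, and the Atoh1 change there ran from -0.33 to 0.36 and that of Nhlh2 from -0.0386 to 0.0867. With ICRF-193 Barhl1 ran from -0.11 to 0.13, Nhlh1 from -0.0229 to 0.1695 and members called higher from 1 to 2, against 270 to 361 of all. In the difference Neurod1 at its brighter probe set, 1426413_at, ran from -0.0473 to 0.0175 and members called higher from 0 to 1, against 506 to 587 of all. At 1426412_at, whose difference was given above, Neurod1 ran from -0.38 to -0.29 over all alternatives. With 3 or 4 arrays a group, array number limits what can be called.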
